A study of Homo sapiens with 46 samples.

Results

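NR2F1 and NR2F2, also called COUP-TFI and COUP-TFII, are the COUP transcription factors, a pair of orphan nuclear receptors that bind DNA at repeats of a hormone response element half-site and can repress or activate nearby genes. In the developing vertebrate nervous system NR2F1 is known for patterning the cortex along its front to back axis, and NR2F2 for roles in neurons, vessels and mesenchyme. Both are also known to be expressed in neural crest, the migratory population that forms at the border of the neural plate. NR2F2 is known to have short isoforms that lack the DNA-binding domain.

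The rows were chosen by transcript identifier and by the length value deposited beside each identifier. No count entered that choice, but the pair was proposed with the counts of these libraries already seen, so the levels below are a description of these libraries, and the adjusted p-values, taken over all transcripts, are not independent support for the choice. Of 63691 deposited rows, 1 met both conditions: the NR2F1 row uc003kkj.3, whose length value of 404 is that of a protein of 423 residues less 19. The 2 identifiers listed for NR2F2 were present but failed on length, because each held the value listed for the other: uc002btp.3 had 262 and uc010uri.2 had 395. The pair of values was the pair listed for NR2F2, at 281 and 414 residues, so both rows are described beside NR2F1 and are called here, by their length, the NR2F2 long row (uc010uri.2) and the NR2F2 short row (uc002btp.3). That they are NR2F2 rests on the listed identifiers alone, since the files carry no gene names.

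All libraries came from the H1 line of human embryonic stem cells, an established line kept feeder-free in mTESR1, after infection with lentivirus carrying a short hairpin RNA. The hairpin was shControl, shKBTBD8 (against KBTBD8, a substrate adaptor of a ubiquitin ligase) or shTCOF1 (against TCOF1, a nucleolar protein mutated in Treacher Collins syndrome). Stages were undifferentiated cells (hES) and neural conversion in NIM for 1 day (ND1), 3 days (ND3) or 6 days (ND6). Each sample type was read as mRNA and as ribosome footprints, the mRNA fragments left under ribosomes after RNase I digestion. A first set of 32 libraries held shControl and shKBTBD8 at all 4 stages with 2 replicates, and a second set of 14 held all 3 hairpins at hES and ND3 with 1 library each apart from 2 for shControl at hES. All cells, controls included, carried a lentiviral hairpin. The labels describe no separate cultures or clones, so the p-values rest on a spread between samples that could be purely technical.

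Depth, counted once per transcript, was 16.3 to 27.1 M counts for mRNA and 1.03 to 10.2 M for footprints among libraries of the first set. It was 11.3 to 29.2 M and 4.07 to 7.93 M among those of the second. Levels are counts scaled to a common depth (CPM). A count of 0 allows a level up to that of 3 counts, which was 0.104 to 0.264 CPM in mRNA libraries and 0.364 to 2.64 CPM in footprint libraries. Intervals and these limits cover counting error only. A fold change given as at least is set against 3 counts over the group at 0. It leaves out counting error in the other group. Without gene names, the levels of KBTBD8 and TCOF1 and of cell type markers were not analysed here, so the knockdowns and the cell types were not checked. In bulk samples, fewer cells that express a gene and less RNA per cell cannot be told apart.

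RefSeq places NR2F1 on chromosome 5 at 93583222 to 93594611 with 2 transcripts, and NR2F2 on chromosome 15 at 96326046 to 96340263 with 4 transcripts (GRCh38.p14). The deposited files were made on hg19, so these coordinates describe the genes and not the counted rows. A window for each gene, from 250 bases before a transcript start to 50 after it, is shown because both genes rose from near 0 during conversion, though not at the same stage. Capitals mark a CCAAT box and, in NR2F1 only, a TATAA motif. The first window is NR2F1 at chr5:93582972-93583271 and the second NR2F2 at chr15:96333515-96333814, both on the plus strand.
NR2F1: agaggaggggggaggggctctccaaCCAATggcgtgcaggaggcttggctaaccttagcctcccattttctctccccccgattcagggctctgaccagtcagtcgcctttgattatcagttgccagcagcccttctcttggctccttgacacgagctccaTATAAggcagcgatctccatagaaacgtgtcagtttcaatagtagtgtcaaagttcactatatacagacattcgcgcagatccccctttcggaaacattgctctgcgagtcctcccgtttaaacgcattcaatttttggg
NR2F2: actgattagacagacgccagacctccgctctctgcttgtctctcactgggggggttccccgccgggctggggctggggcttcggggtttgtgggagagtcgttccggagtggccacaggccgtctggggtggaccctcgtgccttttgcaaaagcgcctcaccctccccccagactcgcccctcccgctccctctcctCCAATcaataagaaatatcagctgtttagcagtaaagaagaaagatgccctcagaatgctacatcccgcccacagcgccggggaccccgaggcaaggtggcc

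Both strands were searched for these motifs and for AGGTCA, the half-site that nuclear receptors bind. In the NR2F1 window CCAAT began 225 bases and TATAA 90 bases before the transcript start, and in the NR2F2 window CCAAT began 52 bases before it. Of 35116 RefSeq windows of the same length, 34.6% held the CCAAT motif, 20.4% held TATAA in either direction and 13.8% held the half-site. A second NR2F1 window in the RefSeq table, at chr5:93586849-93587148, held TATAA on the minus strand, and a second NR2F2 window, at chr15:96332315-96332614, held none of the 3. AGGTCA was in none of these 4 windows. Both NR2F2 windows lie inside the gene, and a window at its lowest coordinate, 96326046, was not used here. No transcript start was matched to a counted row. The second NR2F2 window, which lies before the window shown, reads on the plus strand as coding sequence of the DNA-binding domain. A transcript that starts in the window shown would therefore lack that sequence. If the long row encodes the domain, the NR2F2 window shown is not its start. GC content was 51.3% in the NR2F1 window shown and 62.0% in the NR2F2 window shown, beside a median of 58.7% over all windows.

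In control cells of the first set, mRNA of both genes was at or near 0 through ND1, and NR2F2 appeared before NR2F1. NR2F1 had 3 and 0 counts in the 2 hES libraries and 2 and 0 in those of ND1, rising to 9 and 5 at ND3 and to 402 and 282 by ND6. The NR2F2 long row had no count at hES and 7 and 0 at ND1, then 67 and 73 at ND3 and finally 432 and 395 by ND6. The ND6 libraries stood above all ND3 libraries for both rows, and the ND3 libraries above all hES and ND1 libraries. How many of all transcripts keep this order was not counted, so it is not shown to be particular to these genes.

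As levels, NR2F1 was 0.447 and 0.19 CPM at ND3 and 19.0 and 11.7 CPM at ND6, and the NR2F2 long row was 3.33 and 2.77 CPM at ND3 and 20.4 and 16.4 CPM at ND6. Relative to hES, pooled counts at ND6 were 235-fold higher for NR2F1 (95% interval 80.1 to 1140, over 3 counts at hES) and at least 284-fold higher for NR2F2, which was at 0 there. All 3 NR2F1 counts at hES came from the first library; the fitted NR2F1 log2 fold change was 7.78, and 11.5 without that library, a size that then depends on the prior count, or 6.79 without the second, and it passed in each case. Both rows passed edgeR's quasi-likelihood test at ND6 against hES (adjusted p = 2e-06 for NR2F1 and 6.69e-07 for NR2F2), in a comparison where 29.7% of 17660 transcripts were called higher. At ND3, where 23.7% of transcripts were called higher than at hES, NR2F2 rose at least 46.8-fold (edgeR adjusted p = 6.36e-05), whereas NR2F1 was 4.68-fold higher by count (1.31 to 25.4) and did not pass (edgeR adjusted p = 0.131). A fit of both sets together lets them differ only by 1 shift common to all groups, so stage and hairpin effects are taken as equal. With both sets in that fit NR2F1 passed at ND3 (log2 fold change 4.59, edgeR adjusted p = 0.0128). It also passed with the replicate number as a block (2.19, edgeR adjusted p = 0.0408). Its log2 fold change there, 2.15, was 5.84 without the first hES library, 1.17 without the second and 1.48 without the first ND3 library, none of which passed.

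**Figure D1:**
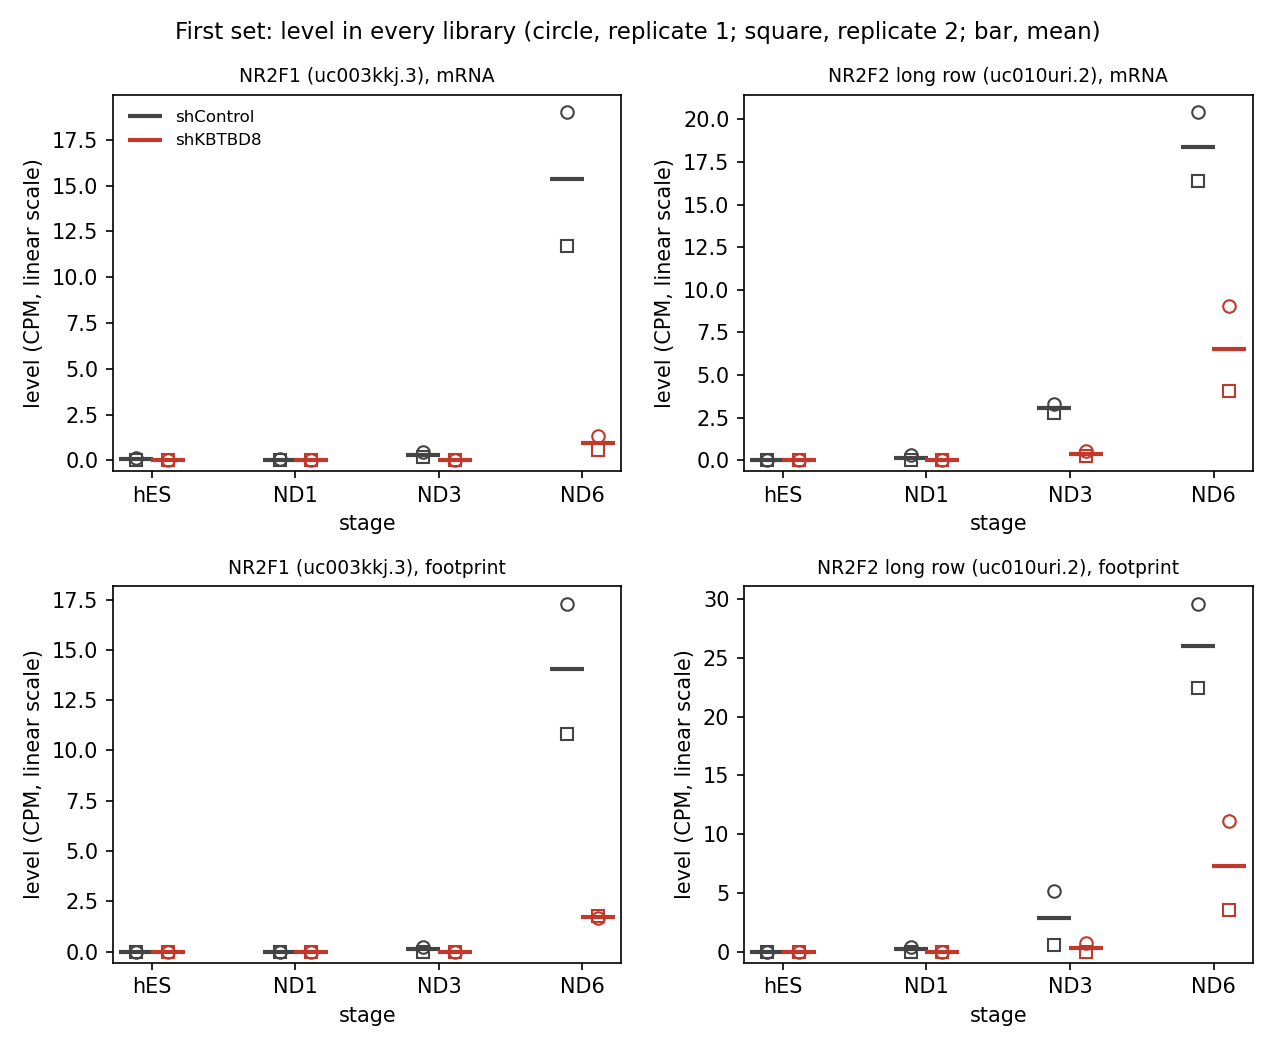
Level of the NR2F1 row and the NR2F2 long row in every library of the first set, in CPM on a linear axis, by stage (hES, ND1, ND3, ND6), for mRNA (upper panels) and footprints (lower panels). Grey marks shControl and red shKBTBD8, each point is 1 library and bars are means; the control libraries at ND6 reached 19.0 and 11.7 CPM for NR2F1 mRNA and 20.4 and 16.4 CPM for NR2F2 mRNA, above both shKBTBD8 libraries.

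From ND3 to ND6 both genes rose under either hairpin. The fitted change in controls was larger for NR2F1, a difference between the genes that the fit did not test. In control cells NR2F1 rose by a log2 fold change of 5.63 ± 0.56 (SE; edgeR adjusted p = 5.23e-05) and NR2F2 by 2.60 ± 0.43 (edgeR adjusted p = 0.00119), and 10.8% of transcripts were called higher. By that log2 fold change NR2F1 ranked 7 from the top of 17660 transcripts and NR2F2 ranked 103. Under shKBTBD8, where 8.6% of transcripts were called higher, NR2F2 rose by 4.06 ± 0.57 (edgeR adjusted p = 0.000322), and NR2F1, at 0 in both ND3 libraries, rose at least 15.9-fold (edgeR adjusted p = 0.00402). By counts NR2F2 rose 18.0-fold there (11.2 to 30.7), so which gene rose more under shKBTBD8 was not resolved. With both sets in 1 fit the NR2F1 rise under shKBTBD8 did not pass (log2 fold change 1.74, edgeR adjusted p = 0.309).

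The balance between the genes moved with the same step. Counts per unit of length put NR2F1 at 0.131 of the NR2F2 long row in one ND3 control library (95% exact interval 0.0576 to 0.265) and at 0.067 (0.0211 to 0.164) in the other. At ND6 the control ratios of the first set were 0.91 (0.792 to 1.04) and 0.698 (0.597 to 0.815), so mRNA of the 2 genes was closer to parity per length there, and the intervals of the ND3 and ND6 control libraries of the first set did not overlap. The 1 ND3 control library of the second set, at 0.594 (0.376 to 0.925), overlapped both ND6 intervals. Among shKBTBD8 libraries at ND6 the ratio was 0.146 (0.0975 to 0.213) and 0.137 (0.0601 to 0.278), with no overlap with the ND6 controls and within the range of the first-set ND3 controls' intervals.

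**Figure D2:**
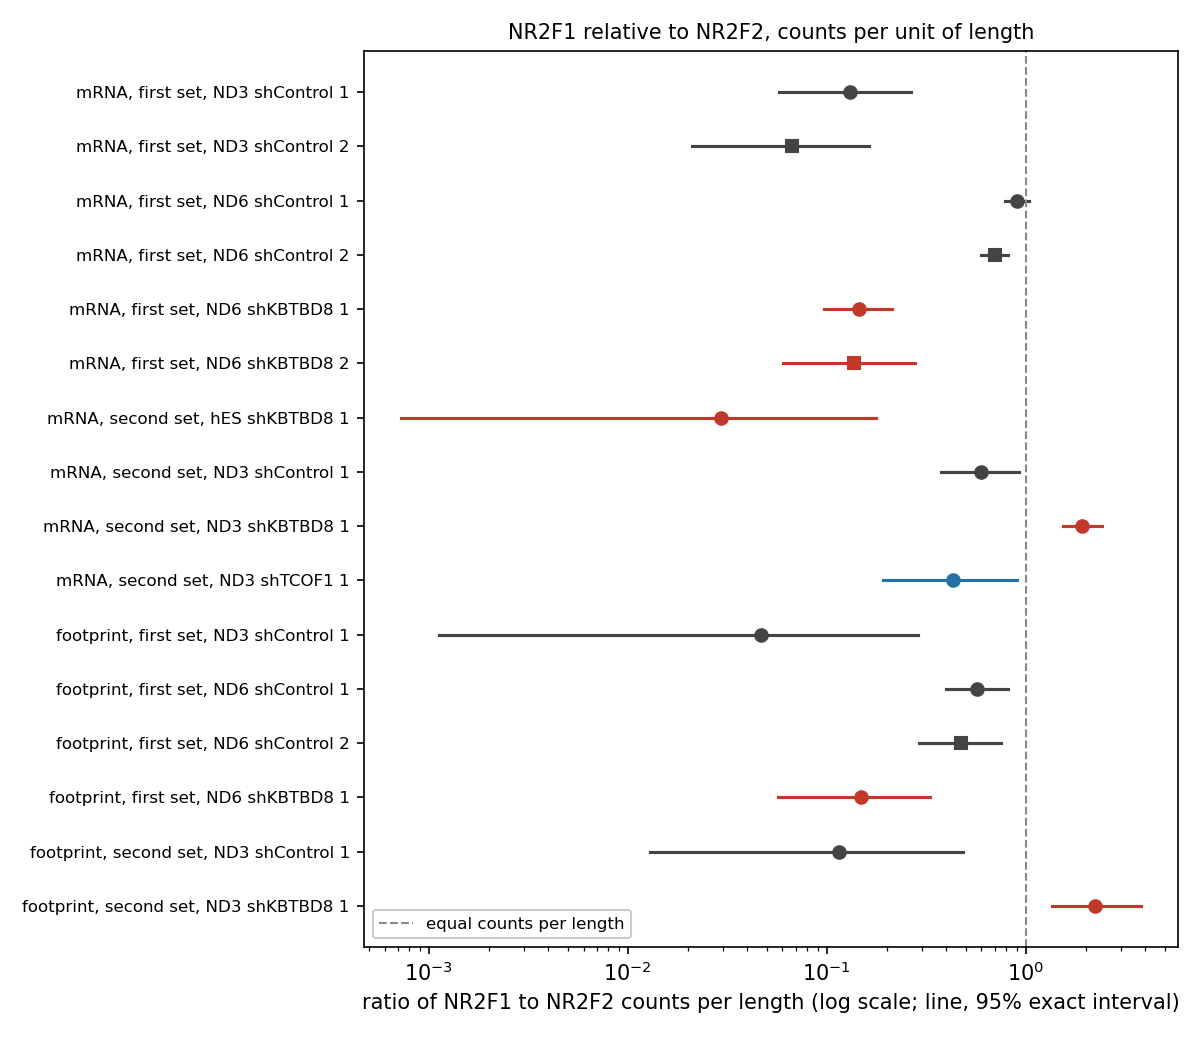
Ratio of NR2F1 to NR2F2 long row counts per unit of length in each library with at least 10 counts over both rows and at least 1 of NR2F1, on a log axis, with 95% exact intervals as lines and equality as the dashed line. Grey is shControl, red shKBTBD8 and blue shTCOF1; shKBTBD8 libraries lie at 0.146 and 0.137 for ND6 mRNA of the first set and at 1.92 for ND3 mRNA of the second.

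Whether loss of KBTBD8 alters this course is the main comparison of the first set. Both genes were lower in both shKBTBD8 mRNA libraries than in both controls at ND3 and ND6. With 2 libraries a group such an order can arise by chance, and its share over all transcripts was not counted here. In the fit without a replicate block the test was passed by NR2F2 at ND3 and by NR2F1 at ND6. With the replicate number as a block NR2F1 at ND3 and NR2F2 at ND6 passed as well (edgeR adjusted p = 0.0166 and 0.00818); the labels do not say that the numbers mark shared cultures or days. At ND6 NR2F1 had 32 and 9 counts under shKBTBD8 against 402 and 282 in controls, which as levels were 0.96 ± 0.553 CPM and 15.4 ± 5.12 CPM (SD, n = 2 each). The NR2F2 long row had 214 and 64 counts against 432 and 395, or 6.54 ± 3.53 CPM against 18.4 ± 2.79 CPM (SD, n = 2 each). NR2F1 was thus 14.6-fold lower by pooled counts (10.6 to 20.5) and NR2F2 2.6-fold lower (2.27 to 2.99), intervals that leave out the spread between replicates.

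In the fit over all transcripts NR2F1 fell at ND6, with a log2 fold change of -3.92 ± 0.49 (edgeR adjusted p = 0.000945), rank 5 from the lowest of 17660, where 1.91% of transcripts were called lower. DESeq2 gave NR2F1 a log2 fold change of -3.99 with an adjusted p of 0.0537, which does not pass. The NR2F2 long row had a log2 fold change of -1.47 ± 0.41 at ND6 (edgeR adjusted p = 0.0675), past the threshold without the first shKBTBD8 library at ND6 (-2.18, edgeR adjusted p = 0.033) and, narrowly, over all deposited rows (edgeR adjusted p = 0.0499).

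At ND3 NR2F1 had no count in either shKBTBD8 library against 9 and 5 in controls. That is 4.61-fold lower with the 0 set at a floor of 3 counts, leaving out counting error in the controls. Its test gave an edgeR adjusted p of 0.0823, and with both sets in 1 fit its direction turned (log2 fold change 1.10, edgeR adjusted p = 0.653). The NR2F2 long row had 12 and 6 counts against 67 and 73, 7.68-fold lower by pooled counts (4.69 to 13.3). Its log2 fold change was -2.93 ± 0.59 (edgeR adjusted p = 0.00772), where 3.92% of transcripts were called lower. Without the first ND3 control library, or without the second shKBTBD8 library, that call was lost (-2.80 and -2.50, edgeR adjusted p = 0.0655 and 0.0998), as it was with both sets in 1 fit (-1.58, edgeR adjusted p = 0.296). At hES and ND1 the counts of both genes were between 0 and 7 in all libraries of the first set, so a hairpin effect was not detectable at this depth.

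A score built on transcripts that change during neural conversion also differed between these libraries. A conversion score, the mean log2 CPM of 1784 transcripts that rose from hES to ND3 in the second set less that of 1533 that fell, was 1.5 and 1.48 in ND3 controls against 0.894 and 0.851 under shKBTBD8, and 1.94 and 1.87 against 1.57 and 1.49 at ND6. The shKBTBD8 libraries at ND6 thus scored near or just above the controls at ND3. The part of this score in the lower NR2F1 and NR2F2 levels was not tested. Whether a lower score means slower conversion or a hairpin effect on these transcripts was not tested either.

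Footprints of both genes were also highest at ND6, at lower counts than mRNA. For NR2F1 the counts before ND6 were too few to order the stages. In controls NR2F1 had 52 and 29 footprints at ND6, 1 and 0 at ND3 and none earlier. The NR2F2 long row had 89 and 60 at ND6, 21 and 3 at ND3, 3 and 0 at ND1 and none at hES. At ND6 against hES NR2F1 was at least 57.0-fold higher (edgeR adjusted p = 0.0161) and NR2F2 at least 105-fold higher (edgeR adjusted p = 0.00222), where 6.33% of 16741 transcripts were called higher. The NR2F1 call was lost without either hES control library or without the first ND6 control library (edgeR adjusted p = 0.168, 0.103 and 0.0801). At ND6 against ND3 neither gene passed (edgeR adjusted p = 0.17 for NR2F1 and 0.344 for NR2F2), where 118 transcripts were called in either direction. With only the groups compared both passed (edgeR adjusted p = 0.00927 and 0.0334). Nor did either pass at ND3 against hES (edgeR adjusted p = 0.673 and 0.052), where 1179 were called. There NR2F2 passed with DESeq2 (adjusted p = 0.00916).

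Under shKBTBD8, ND6 footprints were 7 and 2 for NR2F1 and 46 and 4 for the NR2F2 long row, below both control libraries in each case. The share of all transcripts in that order was not counted. Pooled footprint counts were 8.39-fold lower for NR2F1 (4.21 to 19.0) and 2.78-fold lower for NR2F2 (2.0 to 3.91), and neither passed the test (log2 fold changes of -3.02 ± 1.72 and -1.78 ± 1.25, edgeR adjusted p = 1 for both). Only 0.0119% of transcripts were called in either direction in that comparison, and the second shKBTBD8 library at ND6 held the 1.03 M counts that were the lowest depth. At ND3, where 0.305% of transcripts were called in either direction, the NR2F2 long row had 3 and 0 footprints under shKBTBD8 (log2 fold change -2.73 ± 1.51, edgeR adjusted p = 0.722), and the groups overlapped, at 0.697 CPM in the first shKBTBD8 library and 0.589 CPM in the second control library.

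Footprint level relative to mRNA level, the translational efficiency, had a higher point value for NR2F2 than for NR2F1 in both ND6 controls, with overlapping intervals. The ratio of footprint to mRNA CPM was 0.912 (95% exact interval 0.67 to 1.22) and 0.921 (0.606 to 1.35) for NR2F1, and 1.45 (1.14 to 1.83) and 1.36 (1.02 to 1.79) for the NR2F2 long row. Under shKBTBD8 at ND6 the ratio was 1.24 and 3.09 for NR2F1 and 1.22 and 0.869 for NR2F2, from as few as 2 footprints. The hairpin's effect on this ratio at ND6 was 0.91 ± 1.23 for NR2F1 and -0.21 ± 1.16 for NR2F2 on the log2 scale (edgeR interaction test, adjusted p = 1 for both), with errors as large as the estimates or larger. That test called 0% of 17681 transcripts with edgeR and 0 with DESeq2, and 403 had an unadjusted edgeR p under 0.05. Without the first shKBTBD8 footprint library at ND6 edgeR called 633.

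The second set, which has 1 library per hairpin at ND3, showed the opposite order of shKBTBD8 and control. At ND3 NR2F1 had 34 mRNA counts in the control library, 234 under shKBTBD8 and 11 under shTCOF1, or 1.24, 8.08 and 0.39 CPM. The NR2F2 long row had 56, 119 and 25 counts, or 2.05, 4.11 and 0.887 CPM. For both genes the shKBTBD8 library was highest and the shTCOF1 library lowest.

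Compared by counts, NR2F1 was 6.5-fold higher under shKBTBD8 than in the control (4.52 to 9.61) and 3.19-fold lower under shTCOF1 (1.58 to 6.97). NR2F2 was 2.01-fold higher (1.45 to 2.81) and 2.31-fold lower (1.42 to 3.86). These ratios compare single libraries and have no replicate check. At hES the NR2F2 long row had 0 and 1 counts in controls and 0 under shTCOF1 but 33 under shKBTBD8, or 1.40 CPM, while NR2F1 had 0 or 1 count in each of these libraries.

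**Figure D3:**
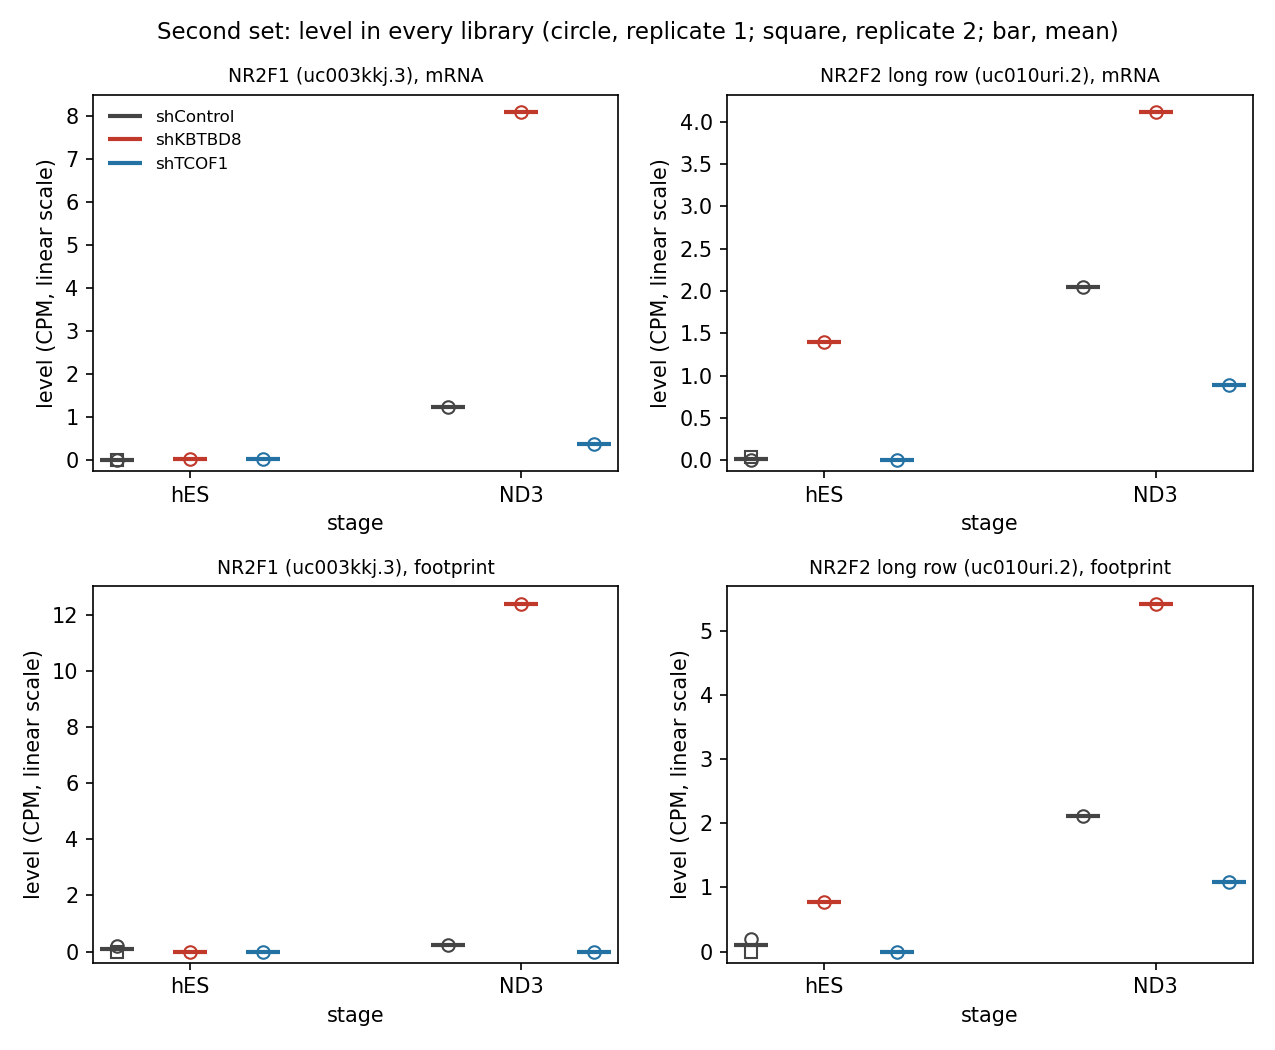
Level of the NR2F1 row and the NR2F2 long row in every library of the second set, in CPM on linear axes that differ between panels, at hES and ND3, for mRNA (upper panels) and footprints (lower panels). Grey is shControl, red shKBTBD8 and blue shTCOF1, each point is 1 library and bars are means; at ND3 shKBTBD8 is highest, with 8.08 CPM for NR2F1 mRNA and 4.11 CPM for NR2F2 mRNA.

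Translational efficiency in the second set was not called for either gene in any comparison, with log2 differences from -4.42 ± 4.06 to 1.28 ± 2.59 (edgeR interaction test, adjusted p from 0.941 to 1). Of 17517 transcripts, 1.47% were called for ND3 against hES, and 0% for shKBTBD8 or shTCOF1, where 857 and 527 had an unadjusted edgeR p under 0.05 and DESeq2 called 28 and 1. An additive edgeR model over both stages of the second set called neither gene for either hairpin. For shKBTBD8 the log2 fold change was 2.67 ± 0.51 for NR2F1 (edgeR adjusted p = 0.186) and 2.10 ± 0.72 for NR2F2 (edgeR adjusted p = 0.44), with 0.0227% of 17617 transcripts called in either direction. Without the hES shKBTBD8 library NR2F1 passed (2.78, edgeR adjusted p = 0.0452), and without the ND3 shKBTBD8 library NR2F2 passed (5.59, edgeR adjusted p = 0.0104). Each of these leaves 1 shKBTBD8 library, which is assumed to vary like the other groups, so they show that the value rests on single libraries. For shTCOF1 it was -1.44 ± 0.64 and -1.01 ± 0.86 (edgeR adjusted p = 0.924 and 0.961), where edgeR called 0% of transcripts, 938 had an unadjusted p under 0.05 and DESeq2 called 19. Without the ND3 shTCOF1 library the NR2F1 value was 2.81, and without the ND3 control library the NR2F2 value was 2.22, both of opposite sign. Across hairpins, ND3 was higher than hES by a log2 fold change of 6.57 ± 0.61 for NR2F1 (edgeR adjusted p = 5.01e-05) and 2.95 ± 0.66 for NR2F2 (edgeR adjusted p = 0.00446), where 30.7% of transcripts were called higher. With 1 library left out these values ran from 5.28 to 7.49 and from 2.14 to 6.17. By counts the NR2F2 rise was 72.2-fold in controls (12.4 to 2900) and at least 6.81-fold under shTCOF1. Under shKBTBD8, with 33 counts at hES, it was 2.94-fold (1.99 to 4.47). The additive value for NR2F2 thus does not describe each hairpin.

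Footprints of the second set had the same order of libraries at ND3 by count, but control and shTCOF1 were not resolved. NR2F1 had 2 footprints in the control, 55 under shKBTBD8 and 0 under shTCOF1, and the NR2F2 long row had 17, 24 and 6. For shTCOF1 over control, NR2F1 was too low for a ratio, and the NR2F2 ratio of 0.511 had an interval that spans equality (0.165 to 1.36). As levels, NR2F1 was 0.249 CPM in the control and 12.4 CPM under shKBTBD8, a ratio of 49.8 that counting alone places between 13.2 and 422. NR2F1 was too low in the other footprint libraries to pass the filter on low counts there, and the NR2F2 long row did not pass the test for shKBTBD8 (edgeR adjusted p = 0.99) or shTCOF1 (edgeR adjusted p = 1). Those 2 comparisons called 0% of 16415 transcripts with edgeR, with 717 and 282 at an unadjusted p under 0.05 and 21 and 5 called by DESeq2, so the lack of a call is not particular to NR2F2. In the shKBTBD8 library NR2F1 exceeded NR2F2 per unit of length, with ratios of 1.92 (1.54 to 2.42) in mRNA and 2.24 (1.36 to 3.78) in footprints, while the ND3 control library had 0.594 (0.376 to 0.925) and 0.115 (0.0129 to 0.485).

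The difference of the shKBTBD8 effect at ND3 between the sets was fitted in 1 model of all mRNA libraries, an analysis prompted by these values and therefore no independent support for them. Its second-set arms are 1 library each, assumed to vary like the other groups, which supply the spread. It was 8.56 ± 1.82 for NR2F1 and 3.93 ± 0.86 for NR2F2 on the log2 scale, second set less first set (edgeR adjusted p = 0.0373 and 0.0347), where 0.759% of 17666 transcripts were called higher. The size for NR2F1 depends on the prior count, since its shKBTBD8 libraries of the first set were at 0. Both calls were lost when any 1 of the 4 first-set ND3 libraries was left out (edgeR adjusted p from 0.0502 to 0.238 for NR2F1 and from 0.0572 to 0.144 for NR2F2). In footprints the difference was 7.94 ± 4.27 and 4.08 ± 2.62 (edgeR adjusted p = 0.673 and 0.742), with 0.0975% of transcripts called in either direction.

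Scores for neural conversion, computed for the second set on 1914 rising and 1644 falling transcripts of the first, were 1.02 in the ND3 control, 0.966 under shKBTBD8 and 0.861 under shTCOF1. At hES they were -2.55 and -2.49 in controls, -2.47 under shTCOF1 and -1.85 under shKBTBD8. The hES shKBTBD8 library, which alone held NR2F2 mRNA above 1 count among the hES libraries of both sets, thus also had the highest hES score. The part of this score in the NR2F2 level was not tested.

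The long and short NR2F2 rows moved together. The short row's count was at or below the long row's in 46 of 46 libraries. In mRNA the long row's 1505 counts exceeded the short row's by 111, or 7.38% (95% exact interval 6.11 to 8.81). In footprints its 282 counts exceeded them by 41, or 14.5% (10.6 to 19.2). This net difference is the long row's own reads only if the long row contains all reads of the short row, which was not checked. If the short row's length lies wholly within the long row's, the part that only the long row has is 133 of 395, or 33.7%. On these assumptions, neither of which was checked, counts specific to the long row were fewer per length than shared counts in both assays. The share was 6.71% and 6.84% in the ND6 control mRNA libraries and 22.5% (14.3 to 32.6) and 11.7% (4.82 to 22.6) in the matching footprint libraries. In the mRNA libraries with at least 10 long-row counts it ran from 4.0% to 14.3%, and the position of reads along the rows is not in these files, so isoform levels cannot be assigned from it. Because the rows appear to share most of their counts, the short row is no separate test of the long row's calls. Under shKBTBD8 in the first set its log2 fold change was -3.02 ± 0.61 at ND3 (edgeR adjusted p = 0.00949). At ND6 it was -1.46 ± 0.41 (edgeR adjusted p = 0.0818).

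**Figure D4:**
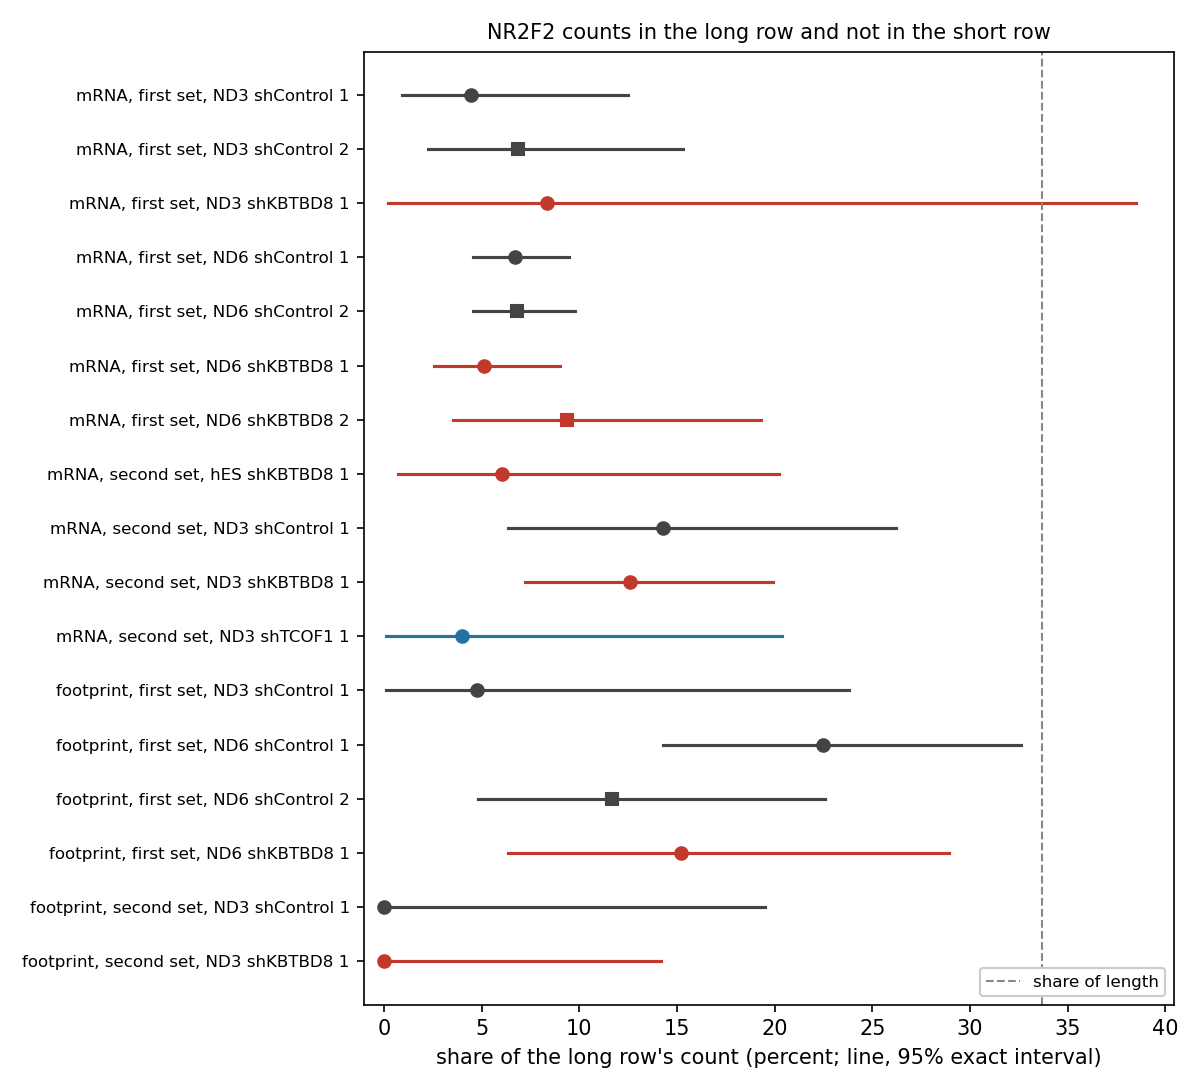
Count of the NR2F2 long row less that of the short row, in percent of the long row's count on a linear axis. Libraries with at least 10 long-row counts are shown, with 95% exact intervals as lines. Grey is shControl, red shKBTBD8 and blue shTCOF1. The dashed line is the long row's own share of length, 33.7%, if the short row's length lies wholly within it. Library values lie to the left of the line, from 4.0% to 14.3% in mRNA and from 0% to 22.5% in footprints.

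Among the 17660 transcripts tested in first-set mRNA, NR2F1 and the NR2F2 long row had a Pearson r of 0.884 with each other over the 16 libraries (log2 CPM), and 138 transcripts had a higher r with NR2F1. The transcript most like NR2F1 outside its neighbourhood in the files was uc002yjx.2 (r = 0.97), and the one most like NR2F2 was uc003pag.3 (r = 0.978). The libraries share stages and hairpins, so these correlations describe the shared course over groups, and the files give no gene names for either.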

How the data were processed

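Deposited values were whole-number counts, 1 per transcript row for 63691 rows per library, beside a length value in an unnamed unit. Tools in the submitters' processing notes are TopHat2 2.0.7, Bowtie2 2.0.6 and CASAVA 1.8, with the hg19 build. How reads were counted, whether by strand and with what rule for several matches, is not stated in the labels, so reads shared with gene copies or antisense transcripts are uncertain. The authors' length values were used only for the rule and for counts per length.

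Isoform rows that share reads (mean count of at least 10, within 20 rows, chi-square per degree of freedom under 2) were represented by 1 row, leaving 17680 transcripts, to which the NR2F2 short row was added. CPM used that depth and TMM factors. Tests were edgeR 4.0.16 quasi-likelihood F-tests in R 4.3.3 on the counts, with filterByExpr, TMM, Benjamini-Hochberg adjustment and a threshold of 0.05. First-set fits had 8 groups in 16 libraries per assay, translational efficiency was an assay by group interaction over 32 libraries, and the second set used additive terms for stage and hairpin in 7 libraries per assay. NR2F1 and NR2F2 passed the filter through the late libraries, where they are high. Exact intervals (95%) came from scipy 1.17.1. A ratio against a group at 0 was set against a floor of 3 counts over the group, with counting error in the other group left out. The fits were also run on simulated counts with 1 level per transcript in all groups, apart from changes added under shKBTBD8 at ND6. That setting is unlike rows that rise from 0, so it does not bear on these 2 genes.

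The members, comparisons and tests were chosen with earlier results of these data known. The named transcripts are the listed rows and, for each gene, the transcript with the highest Pearson correlation outside 50 file rows. Replicate libraries differed beyond sampling noise in every group (chi-square per degree of freedom from 5.78 to 36.7). Alternatives were RLE size factors, DESeq2 1.42.0, other filters, all deposited rows, only the groups compared, a replicate block, both sets together, and each library left out. The fit of both sets together takes each hairpin effect as the same in both, although at ND3 the effects fitted apart had opposite signs. Promoter windows and gene positions are from RefSeq tables of GRCh38.p14, in which both genes matched by symbol.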

Additional observations from a re-analysis of the deposited data

Results flagged for a closer look

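The fitted shKBTBD8 effect at ND3 on mRNA had opposite signs in the 2 sets for both genes, a difference of 8.56 on the log2 scale for NR2F1 and of 3.93 for the NR2F2 long row, second set less first set (edgeR adjusted p = 0.0373 and 0.0347). In the first set both shKBTBD8 libraries lay below both controls, and in the second the 1 shKBTBD8 library lay above the 1 control. The fit was prompted by these same values and its second-set arms are 1 library each, assumed to vary like the other groups, so its p-values are a description. The labels do not say how the sets differ, and each first-set ND3 library was needed for the call.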

How the results depend on the processing

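Over 55 results for NR2F1 and the NR2F2 long row, 543 recomputed values kept their direction and side of the threshold, 16 lost a call, 19 gained one and 34 changed sign, 31 of these with 1 library left out; no cause was tested. All values here are log2. DESeq2 gave -3.99 for NR2F1 under shKBTBD8 at ND6 (adjusted p = 0.0537), and all deposited rows gave -1.47 for NR2F2 (edgeR adjusted p = 0.0499). With both sets in 1 fit, NR2F1 under shKBTBD8 at ND3 was 1.10 in mRNA and 2.73 in footprints, NR2F2 was -1.58 in mRNA and NR2F1 at ND1 against hES was 3.02. The fit has no replicate block, since each group has only 2 numbers and the labels tie them to nothing. Same-numbered shControl and shKBTBD8 libraries of 1 stage deviated together in mRNA (r from 0.2 to 0.756) and less in footprints (0.00335 to 0.231), while over all pairs of groups the mRNA r ran from -0.0636 to 0.756. The replicate block gave -5.88 for NR2F1 at ND3 (edgeR adjusted p = 0.0166) and -1.55 for NR2F2 at ND6 (edgeR adjusted p = 0.00818) under shKBTBD8 in mRNA, where calls over all transcripts rose from 1489 to 2503 at ND3 and from 705 to 1287 at ND6.

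With 1 library left out, control footprints at ND6 against hES ran from 8.63 to 9.32 for NR2F1, and its control mRNA against hES from -3.70 to 3.10 at ND1, 1.17 to 5.84 at ND3 and 6.79 to 11.5 at ND6. Under shKBTBD8 the NR2F2 mRNA effect ran from -3.54 to -2.50 at ND3 and from -2.18 to -1.03 at ND6. The set difference ran from 7.90 to 9.09 for NR2F1 and from 3.49 to 4.53 for NR2F2. In second-set mRNA, shKBTBD8 ran from 0.66 to 2.78 and from 0.99 to 5.59, and shTCOF1 from -1.65 to 2.81 and from -5.33 to 2.22, for NR2F1 and NR2F2. Translational efficiency in the first set ran from -0.32 to 2.85 (control ND6 against ND3) and from -1.46 to 0.47 (shKBTBD8 at ND6) for NR2F2. In the second set it ran from -4.80 to 3.34 and from -2.17 to 0.97 for ND3 against hES, from -6.25 to 3.08 and from -3.31 to 1.19 for shKBTBD8, and from -10.8 to 1e-04 and from -3.34 to 2.23 for shTCOF1, for NR2F1 and NR2F2.

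Over all transcripts, calls for shKBTBD8 in first-set mRNA numbered 1489 at ND3 (432 to 4477 over the alternatives) and 705 at ND6 (163 to 2336), in footprints 51 (1 to 1031) and 2 (0 to 243), and in second-set mRNA 4 (3 to 139). For translational efficiency at ND6 they numbered 0 (0 to 633). NR2F1 had no count in 15 of 23 footprint and 10 of 23 mRNA libraries.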
